A study of Mus musculus with 15 samples.

Results

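The upper-jaw branch of the first branchial arch was compared between mouse embryos labelled KO and wild-type embryos. The comparison used 6 of the 15 Affymetrix arrays of the series, all of tissue dissected at E10.5. The 3 KO maxillary arrays (KO_MXA replicates 1 to 3) were set against 3 wild-type maxillary arrays (WT_MXA2 replicates 1 to 3), and the members of the comparison were taken from these titles. The remaining 9 arrays were wild-type maxillary (WT_MXA), wild-type mandibular (WT_MNA) and Dlx5/6 mutant mandibular tissue (5_6_MNA), with 3 arrays each. The KO label names no gene. The description shared by all samples lists the planned mutants as dlx2, dlx1/2 and Dlx5/6, and it gives no strain, allele or zygosity. It was written before the dissections, and it foresaw pooling about 10 arches for an experiment. Nothing else shows whether the replicates came from separate litters. The p-values therefore measure the spread between arrays of a group, pooled over all 15 arrays, and that spread may be technical.

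The first arch splits into a maxillary branch, which forms the upper jaw and palate shelves, and a mandibular branch, which forms the lower jaw. Most of its mesenchyme comes from cranial neural crest, and the DLX homeodomain transcription factors give that mesenchyme its position along the arch. Dlx1 and Dlx2 are transcribed in both branches, whereas Dlx5 and Dlx6 belong to the mandibular branch, and loss of the first pair is known to affect the upper jaw and the upper molars.

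Both compared groups were taken as a single array set because they share high bacterial spike-in signals. No sample title names a set, so a set here means arrays alike in these signals. The dap control read 4089.5 to 4201 on the KO arrays, 3985 to 4469 on the WT_MXA2 arrays and 496 to 583 on the other 9. The lys control read 280 to 347, 363 to 368 and 32.5 to 58.7, without overlap between KO and WT_MXA2. The WT_MXA arrays therefore served only as a second control from another set, and the wild-type maxillary groups differed from each other in 8.98% of genes. The median signal of an array was 30.9 to 33.4 in the KO group and 28.7 to 30.1 in the wild type, without overlap. The smallest correlation of an array with a group mate was 0.984 on the KO side and 0.985 on the wild-type side. Only 3 arrays a group limited the precision, with a median standard error (SE) of 0.13 for a log2 change.

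Of 13945 genes tested, 175 (1.25%) changed in the KO branch, 89 (0.638%) upward and 86 (0.617%) downward. A gene was called by limma at a Benjamini-Hochberg adjusted p under 0.05, and each change below is the difference of mean log2(signal + 32), KO minus WT_MXA2, ± SE. Without adjustment, 11.6% of all genes had a p under 0.05, 798 higher and 823 lower, and the unadjusted counts given below for lists without a call are to be read against that share. The added 32 makes this difference smaller than the true change of dim genes. The KO and wild-type arrays did not overlap in any of the 175 called genes, which was also so for 16.3% of all genes tested. Falls were the larger changes: 12 genes fell by at least 1 on this scale and 5 rose by at least 1, while the median over all genes was -0.001. With the arrays shifted to a common median in place of quantile normalization, 54 of 163 called genes were higher (33.1%), against 50.9% here, so the even split between rises and falls depended on the scaling. Leaving out WT_MXA2 replicate 1 gave 115 called genes, and leaving out WT_MXA2 replicate 3 gave 109.

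Dlx2, Dlx1, its antisense transcript and Dlx5 fell in the KO branch. The Dlx2 signal was 3.21, 3.56 and 3.32 on the KO arrays and 442, 421 and 402 on the wild-type arrays. All KO arrays lay below the 40th percentile of their array, the level of the dimmest probe sets (-3.70 ± 0.10, limma adjusted p = 3.4e-17). Where this probe set lies relative to a deleted stretch was not examined. The Dlx1 signal was 206, 199 and 222 in the KO against 701, 688 and 746, so that transcript was reduced on every KO array but still well measured (-1.62 ± 0.07, adjusted p = 6.2e-13). The antisense transcript Dlx1as read 22.2, 26.3 and 17.6 against 57.6, 88.3 and 54.6 (-0.92 ± 0.16, adjusted p = 0.0019).

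Dlx5, low in the maxillary branch compared with the mandibular one, read 27.3, 39.3 and 33.9 in the KO and 97.5, 109 and 145 in the wild type. The groups lay apart, and the change was -1.25 ± 0.12 (adjusted p = 1.3e-06). Its neighbour Dlx6 read 4.70, 13 and 29.2 against 31.5, 23.4 and 32.7, groups that overlapped, and it was not called (-0.43 ± 0.18, adjusted p = 0.39). Neither were Dlx6os1 (-0.38), Dlx3 (-0.12), Dlx4 (0.01) and Dlx4os (-0.24), all with signals of 58.8 or less on these 6 arrays. In the family list of 8, 4 members fell and 0 rose (0 also at an unadjusted p under 0.05 in limma), with a median of -0.67.

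**Figure D1:**
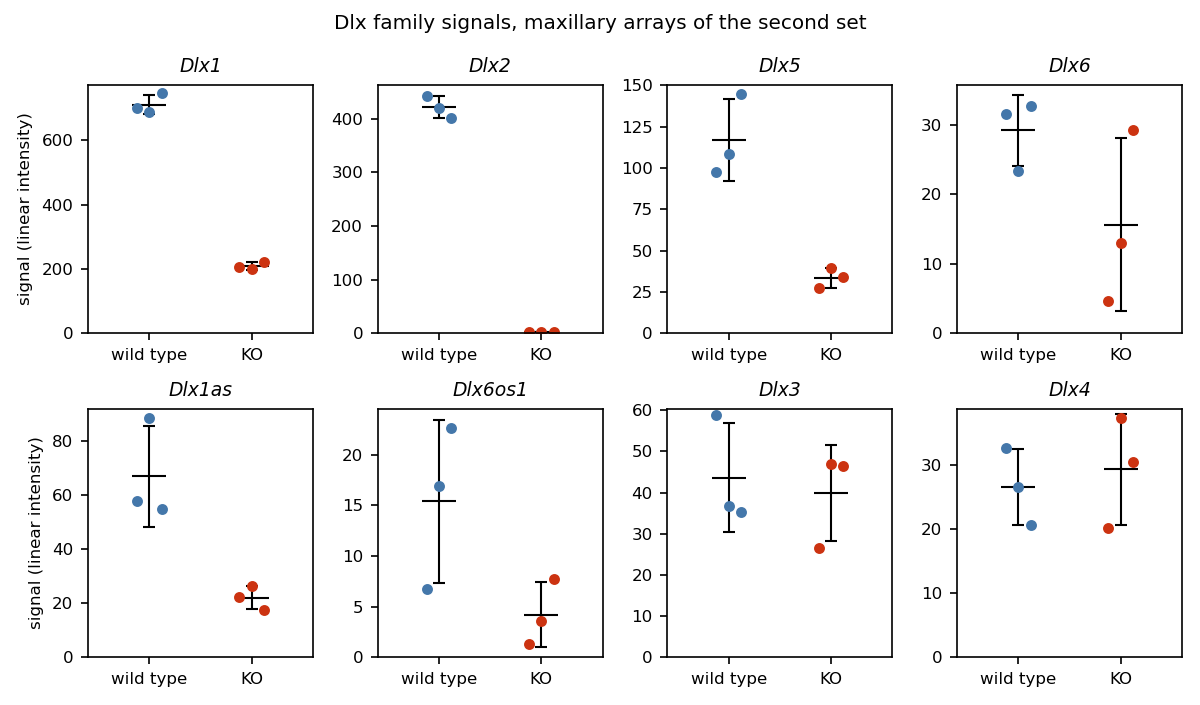
Signal (deposited linear intensity) of 8 Dlx family transcripts on each of the 3 wild-type (blue, WT_MXA2) and 3 KO (red) arrays; bars are means ± SD, and each panel has its own axis from 0. Dlx2 lies near 0 on all KO arrays, Dlx1, Dlx5 and Dlx1as are reduced without overlap, and Dlx3, Dlx4 and Dlx6 overlap between groups.

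Genes beside Dlx1 and Dlx2 on chromosome 2 were also looked at, because the flank of a targeted gene can carry alleles of another strain. Among 25 genes on each side of the pair, 37 were tested and 0 were called by limma, with a median of -0.07. At an unadjusted p under 0.05, 0 of the 37 were higher and 4 lower, a share of 10.8% against 11.6% of all genes tested. Among genes 26 to 100 places away on each side, 92 were tested, and limma called 2 higher and 2 lower (4.35%). The share called was 1.22% for protein-coding genes of all other chromosomes. Whether alleles of another strain had a part in the calls of this wider flank was not tested.

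Barx1 and Osr1 had the largest falls outside the Dlx family, and Lhx6 was among the 6 largest of all. Barx1, a homeobox gene of the molar field and of proximal arch mesenchyme, read 91.0, 97.1 and 90.1 in the KO against 708, 686 and 745. Every KO array was far below every wild-type array (-2.61 ± 0.09, adjusted p = 4.5e-15). Osr1, an odd-skipped zinc finger gene, read 24.3, 18.7 and 29.6 against 144, 167 and 181 (-1.88 ± 0.12, adjusted p = 2e-09). Lhx6, a LIM homeobox gene of tooth-forming mesenchyme, read 148, 152 and 152 against 486, 405 and 466 (-1.42 ± 0.09, adjusted p = 7.1e-10), and its other probe set was called as well (-0.87).

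The list of 18 tooth, palate and oral mesenchyme factors held 6 called falls and 2 called rises, with a median of -0.22. Without single arrays 4 or 5 of them were called lower, 4 of them without KO replicate 1 or 3 or WT_MXA2 replicate 1 or 3. The homeobox gene Shox2 fell by 0.61, with signals of 112, 103 and 88.1 against 163, 157 and 175, although its other probe set was not called (-0.39). Prrx1 (-0.28), a paired-type homeobox gene named after its value was seen, completed the 6. It lost its call without KO replicate 1 or 3 or WT_MXA2 replicate 1 or 3 (adjusted p up to 0.13), and its 5 other probe sets, at -0.53 to -0.01, were not called. Msx2, a homeobox target of BMP signalling, passed narrowly (-0.36, adjusted p = 0.05 after rounding). Its call was lost without any of the 6 arrays (adjusted p up to 0.21), and its other probe set read 0.11.

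The palate gene Tbx22 rose by 0.61, from 173, 136 and 160.4 to 303, 225 and 243, and the paired-type gene Alx1 rose by 0.37. Tbx22 lost its call without KO replicate 1 or without WT_MXA2 replicate 2 or 3 (adjusted p up to 0.11). Alx1 lost it without KO replicate 1 or 3 or WT_MXA2 replicate 1 or 2 (also up to 0.11), and its other probe set was not called (0.39). Close relatives of the falling genes were not called: Lhx8 changed by -0.17, Osr2 by -0.27, Msx1 by -0.04 and Prrx2 by 0.19. Pax9, a tooth and palate regulator, had means of 154 in the KO and 95.7 in the wild type (0.52, adjusted p = 0.18).

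**Figure D2:**
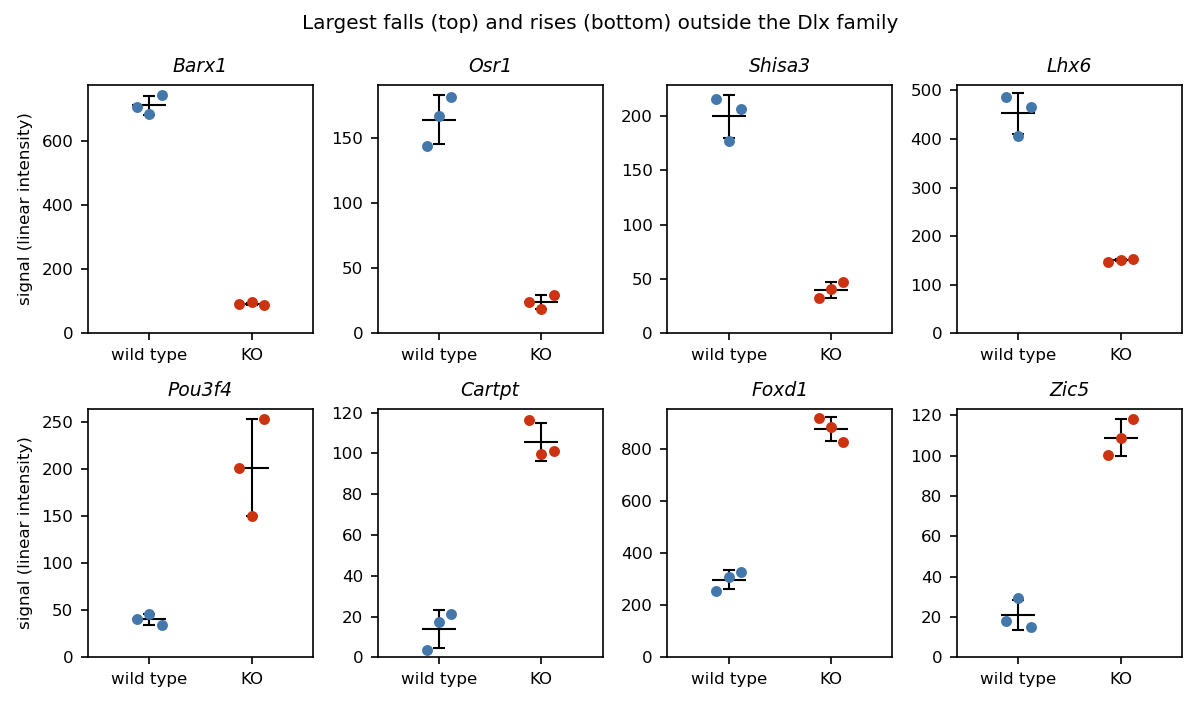
Signal (deposited linear intensity) of 4 of the genes that fell furthest (top) and 4 that rose furthest (bottom) on each of the 3 WT_MXA2 (blue) and 3 KO (red) arrays; bars are means ± SD, and each panel has its own axis from 0. No KO array overlaps a wild-type array in any panel.

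Genes that mark the maxillary or proximal arch mostly lay lower. Of 17 tested, 6 fell and 3 rose, with a median of -0.28, and this list was drawn up with results of these arrays known, so it is not independent evidence of that direction. Shisa3, a membrane protein that restrains WNT and FGF receptors, read 32.2, 40.7 and 47.3 in the KO against 215, 177 and 206 (-1.75 ± 0.12, adjusted p = 5.4e-09). The homeobox gene Emx2 read 27.3, 37.7 and 24.8 against 148, 130.2 and 95.6 (-1.41 ± 0.15, adjusted p = 6.5e-06). Sim2, a bHLH-PAS factor, read 2.19, 21.2 and 30.8 against 79.6, 68.8 and 60.6 (-1.12 ± 0.17, adjusted p = 0.00066), while its other probe set was not called (-0.34).

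Pou3f3, a POU homeobox gene that marks the maxillary branch, read 505, 473 and 468 against 869, 748 and 983 (-0.77 ± 0.09, adjusted p = 1.1e-05). A second, uncalled probe set changed by -0.41. Its divergent noncoding neighbour Pantr1 read 203, 175 and 153 against 353, 270.1 and 318 (-0.74 ± 0.12, adjusted p = 0.0017). Both read above the wild-type mandibular arrays, which are from the other set: the mean there was 207 for Pou3f3 and 64.7 for Pantr1.

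The rises in the same list were Cyp26a1, Tmem30b and Eya1. Cyp26a1, which breaks down retinoic acid, read 253, 286 and 255 against 154, 156 and 139.5 (0.71 ± 0.10, adjusted p = 0.00013). Eya1, a transcriptional cofactor, changed by 0.37 and Tmem30b by 0.39, both named after their values were seen to complete the count. Eya1 lost its call without any of the arrays except KO replicate 2 (adjusted p up to 0.17) and Tmem30b without any except WT_MXA2 replicate 2 (up to 0.15). The other probe sets of Eya1 were not called (0.22 and 0.07). Without single arrays the 6 falls of the list were called each time, but 2 of its rises were without KO replicate 2 or WT_MXA2 replicate 2, and 1 was without any of the other 4 arrays.

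Among 17 mandibular and ventral arch genes, 2 rose and 0 fell (2 fell at an unadjusted p under 0.05 in limma), with a median of 0.15. Foxd1, a forkhead gene, read 917, 882 and 827 in the KO against 256, 309.5 and 326 (1.46 ± 0.09, adjusted p = 9.4e-10). Its mean was 505 on the wild-type mandibular arrays, below every KO value, but those arrays are from the other set. Between the wild-type maxillary groups, Foxd1 was called higher in WT_MXA2 than in WT_MXA (0.43, limma adjusted p = 0.0046). Foxc1, another forkhead gene, read 549.8, 488 and 570.0 against 319.8, 291 and 295 (0.78 ± 0.09), and its other probe set rose by 1.12. It was not called between the wild-type branches, with means of 244.7 on WT_MNA and 253.7 on WT_MXA arrays (-0.04, limma adjusted p = 0.93). Hand2, the bHLH regulator of the ventral arch, averaged 9.90 in the KO and 4.91 in the wild type, below the 40th percentile on all 6 arrays, and Gsc (0.14) and Pitx1 (0.22) were not called. Endothelin pathway genes, which act upstream of ventral arch identity, had 0 called members of 7 tested, and 0 at an unadjusted p under 0.05 in limma.

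Pou3f4, an X-linked POU homeobox gene, and Cartpt had the largest rises on the log2(signal + 32) scale, and their order turned with the added constant: with 8 in place of 32, Cartpt changed by 2.45 and Pou3f4 by 2.09. Pou3f4 read 201, 150.2 and 254 in the KO against 40.5, 46.1 and 34.9 (1.67 ± 0.16, adjusted p = 7.5e-07), and its other probe set rose by 1.69. Cartpt, which encodes a neuropeptide precursor, read 116, 99.6 and 101 against 3.48, 17.5 and 21.2 (1.58 ± 0.18, adjusted p = 1.1e-05). The KO arrays were above every wild-type array for both genes. The wild-type mandibular mean, from the other array set, was 14.2 for Pou3f4 and 7.39 for Cartpt, lower than in the KO maxillary branch.

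Zinc finger genes of the ZIC family read higher. Zic5 read 100.2, 109 and 118 against 18.2, 29.5 and 15.3 (1.41 ± 0.17, adjusted p = 2.3e-05), and 1 of its 2 other probe sets was called (1.22). Zic2 read 56.3, 56.5 and 41.5 against 1.96, 16 and 4.36, and Zic1 read 53.1, 26 and 39.4 against 0.936, 1.09 and 9.59. Both are among the 89 called rises, but their probe sets passed the filter on dim signals through the KO arrays: Zic1 was above the 40th percentile on no array of another group, and Zic2 on 1. Their values are therefore given without a test.

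Among 17 neural crest factors other than Zic1 and Zic2, 4 rose (Zic5, Tfap2a, Ebf1 and Id3) and 1 fell, with a median of 0.09. The rises were 2 without KO replicate 2 or 3 or WT_MXA2 replicate 1 and 3 without another array, and they were 2 against 3 falls with the arrays shifted to a common median. Tfap2a, which encodes AP-2 alpha, a regulator of crest formation, rose by 0.62 from 231, 254 and 268 to 437, 352 and 404 (adjusted p = 0.00049). Among its 2 other probe sets, 1 rose by the same 0.62 and the other changed by 0.07. Ebf1 (0.68) lost its call without KO replicate 1, 2 or 3 or WT_MXA2 replicate 1 or 3 (adjusted p up to 0.21), and its 3 other probe sets were not called. Id3 (0.27), a BMP-responsive inhibitor of bHLH factors, lost it without KO replicate 2 or 3 or WT_MXA2 replicate 1 or 2 (up to 0.095). Snai2, a zinc finger transcription factor of neural crest, fell by 0.59 and lost its call without any of the arrays except KO replicate 2 (up to 0.22), though its other probe set was called (-0.36).

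Promoter sequences of a few of these genes are shown because DLX proteins bind a TAATT core, and 4 were chosen to show a large fall without the core and changed genes with it. Each runs 5′ to 3′ over the 250 bases before the RefSeq transcription start (GRCm38.p6), with TAATT or its reverse complement AATTA in capitals.
Barx1 promoter, chr13:48662786-48663035, plus strand: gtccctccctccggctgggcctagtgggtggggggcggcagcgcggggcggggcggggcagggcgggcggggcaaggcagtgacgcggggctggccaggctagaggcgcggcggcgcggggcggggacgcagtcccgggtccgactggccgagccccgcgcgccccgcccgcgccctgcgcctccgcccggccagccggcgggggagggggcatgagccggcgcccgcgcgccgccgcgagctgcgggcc
Pou3f3 promoter, chr1:42695518-42695767, plus strand: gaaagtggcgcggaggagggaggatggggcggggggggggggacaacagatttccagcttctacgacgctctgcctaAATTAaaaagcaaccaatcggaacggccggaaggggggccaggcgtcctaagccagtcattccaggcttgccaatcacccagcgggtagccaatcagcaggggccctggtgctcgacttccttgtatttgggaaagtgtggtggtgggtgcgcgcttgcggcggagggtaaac
Pou3f4 promoter, chrX:110814129-110814378, plus strand: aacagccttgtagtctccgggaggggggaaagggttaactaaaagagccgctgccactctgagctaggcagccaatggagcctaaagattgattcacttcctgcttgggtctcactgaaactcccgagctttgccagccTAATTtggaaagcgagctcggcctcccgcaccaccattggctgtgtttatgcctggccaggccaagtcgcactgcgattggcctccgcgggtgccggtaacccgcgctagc
Cyp26a1 promoter, chr19:37697558-37697807, plus strand: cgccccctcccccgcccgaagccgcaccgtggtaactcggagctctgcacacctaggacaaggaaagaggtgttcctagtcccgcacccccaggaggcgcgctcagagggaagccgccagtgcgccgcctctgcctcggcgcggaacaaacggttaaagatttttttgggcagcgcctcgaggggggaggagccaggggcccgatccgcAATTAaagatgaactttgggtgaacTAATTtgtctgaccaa
In the window of 300 bases that also takes in the first 50 transcribed bases, the core was found on either strand in 16 of 72 rises with a promoter entry (22.2%), 13 of 61 falls (21.3%) and 16.5% of all genes tested. Among all 27025 genes with a promoter entry, tested or not, the share was 27.3%, above both called groups. It was 3 of 13 (23.1%) for the 15 largest rises and 1 of 9 (11.1%) for the 15 largest falls. Over the 250 bases alone, a window added after the data were seen, the shares were 19.4% of rises, 16.4% of falls and 15.4% of all genes tested. There the share was 25.4% of all genes with an entry, and 15.4% and 0% of the 15 largest rises and falls. A match describes letters in this window and is no measured binding site.

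Of 27 collagens and matrix genes, 8 rose and 0 fell (1 lower at an unadjusted p under 0.05 in limma), with a median of 0.12. Against WT_MXA, 5 were called higher and 3 lower, with a median of 0.01. Without KO replicate 2 or WT_MXA2 replicate 2, 5 were higher. Col3a1, a fibrillar collagen, read 4886, 5136 and 5214 in the KO against 3670.1, 3275 and 3598 (0.54 ± 0.05, adjusted p = 2.2e-06), and its other probe set rose by 0.52. Itih5, a protein that binds hyaluronan, read 366, 334 and 442 against 173, 188 and 223 (0.87 ± 0.14, adjusted p = 0.00098), while 2 other probe sets were not called (0.54 and 0.71). Has2, which makes hyaluronan, rose by 0.48, but not past the threshold without KO replicate 2 or WT_MXA2 replicate 2 (adjusted p up to 0.062). Its other probe set was called (0.69).

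Some collagen genes changed sign with the control. Col1a2 (0.52), Col5a2 (0.53) and Col6a3 (0.58) were higher than in WT_MXA2, but changed by -0.20, -0.09 and -0.11 against WT_MXA, whose levels exceeded those of WT_MXA2. Called higher against both groups were Col3a1 (0.36 against WT_MXA, adjusted p = 0.0001) and, named after their values were seen, Col9a1 (0.39 and 0.69) and Col13a1 (0.74 and 0.98), a collagen outside the list. The other probe set of Col9a1 was not called against WT_MXA2 (0.29). Col6a3 also lost its call against WT_MXA2 without any of the arrays except KO replicate 3 (adjusted p up to 0.12). Tgfbi, a matrix protein induced by TGF-beta, read 513, 529 and 585 against 298, 289 and 264 (0.88 ± 0.09, adjusted p = 2.8e-06), with all 3 other probe sets called. The integrin subunit gene Itga4 read 181, 187 and 165 against 77.6, 90.9 and 73.2 (0.90 ± 0.12), and 1 of 3 other probe sets was called.

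Signalling genes were called in both directions, where 1.25% of all genes tested were called. Of 36 WNT pathway genes, 1 rose and 2 fell, with a median of -0.07. Axin2, a feedback inhibitor and target of WNT signalling, read 149, 151 and 185 against 275, 249.9 and 229 (-0.56 ± 0.10, adjusted p = 0.0033). Its other, dimmer probe set was not called (-0.68). Rspo2, a secreted WNT enhancer, read 201, 168 and 195 against 359.8, 362 and 358 (-0.84 ± 0.09, adjusted p = 3e-06), although its dimmer probe set changed by 0.46 without being called. Apcdd1, a membrane inhibitor of WNT signalling among the 15 largest falls, read 166, 156 and 164 against 343, 331 and 329.8 (-0.93 ± 0.09), and 4 of its 5 other probe sets were called. The receptor gene Fzd1 (0.34) lost its call without KO replicate 1 or 2 or WT_MXA2 replicate 1 or 2 (adjusted p up to 0.17), and its other probe set read -0.01.

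In the hedgehog pathway 1 of 11 genes rose and 2 fell. Gas1, a membrane co-receptor for hedgehog ligands, read 2578, 2334 and 2077 against 3829.8, 3535 and 3713 (-0.64 ± 0.10, adjusted p = 0.0015). Against WT_MXA it changed by -0.29 (adjusted p = 0.081). The other probe sets of Gas1 changed by -0.53 (called) and -0.32 (not called). Cdon, a second co-receptor, fell by 0.50 and lost its call without KO replicate 1 or 2 (adjusted p up to 0.055). Ptch1, the receptor and a target, rose by 0.33 and lost it without KO replicate 1 (0.055). The other probe sets of Cdon (-0.56) and Ptch1 (0.26 and 0.19) were not called. Shh (0.12) and Gli1 (0.36) were not called.

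Of 16 retinoic acid pathway genes, 2 rose and 1 fell. Beside Cyp26a1, the binding protein gene Crabp1 rose by 0.31 and lost its call without KO replicate 3 or WT_MXA2 replicate 3 (adjusted p up to 0.11). Aldh1a2, which makes retinoic acid, read 32.5, 38.3 and 26.2 against 64.5, 56.9 and 82.0 (-0.69, adjusted p = 0.041). Its call was lost without any of the arrays except WT_MXA2 replicate 2 (adjusted p up to 0.22).

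Single members were called in other pathways. The chemokine genes moved apart: Cxcl12 read 879, 968 and 950.2 against 584, 535 and 614 (0.68 ± 0.08), and Cxcl14 read 56.7, 37.3 and 22.3 against 117, 111 and 97.5 (-1.09 ± 0.14). The other probe set of Cxcl14 was not called (-0.29), and of the 2 others of Cxcl12, 1 was called (0.52) and 1 was not (-0.14). These were the only calls among 34 axon guidance genes. Of 15 IGF and imprinted growth genes, Igf2 (0.37) and Igf2r (0.37) rose and the binding protein gene Igfbp3 fell, from 337, 289.8 and 248 to 179, 175 and 175 (-0.63 ± 0.10, adjusted p = 0.001). The other probe sets of Igfbp3 (-0.31), Igf2 (0.34) and Igf2r (0.25) were not called. Igf2 lost its call without KO replicate 2 or WT_MXA2 replicate 2 (adjusted p up to 0.06), and Igf2r without any of the 6 arrays (up to 0.18).

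The FGF feedback gene Spred1 (0.50) and the Notch ligand gene Jag1 (0.49) were the calls among 18 FGF and 16 Notch pathway genes. Spred1 lost its call without KO replicate 1 or 3 or WT_MXA2 replicate 2 or 3 (adjusted p up to 0.23) and Jag1 without KO replicate 3 or WT_MXA2 replicate 2 or 3 (up to 0.13), and each had an other probe set below 0. Of 26 BMP pathway genes, Id3 rose and Msx2 fell. In the early cartilage and bone list the 1 call of 13 was Col1a2, and in the cadherins and integrins list the 1 call of 19 was Itga4.

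Of 24 mitosis and replication genes, 0 were called by limma, with a median of -0.02. At an unadjusted p under 0.05, 0 were higher and 5 lower (20.8%, against 11.6% of all genes tested). The D-type cyclins went opposite ways among 13 G1 regulators: Ccnd2 read 4644, 4705 and 4796 against 3581, 3681 and 3828 (0.37 ± 0.05, adjusted p = 4.7e-05), with 4 of 6 other probe sets called. Ccnd1 fell by 0.31, a call lost without any of the arrays except KO replicate 1 (adjusted p up to 0.18). Its other probe sets changed by -0.36 (called) and -0.33 (not called). No member was called among 13 p53 and apoptosis genes, 13 hypoxia genes or 11 immediate early genes. At an unadjusted p under 0.05 in limma these lists held 3 (23.1%), 3 (23.1%) and 4 (36.4%), against 11.6% of all genes tested.

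**Figure D3:**
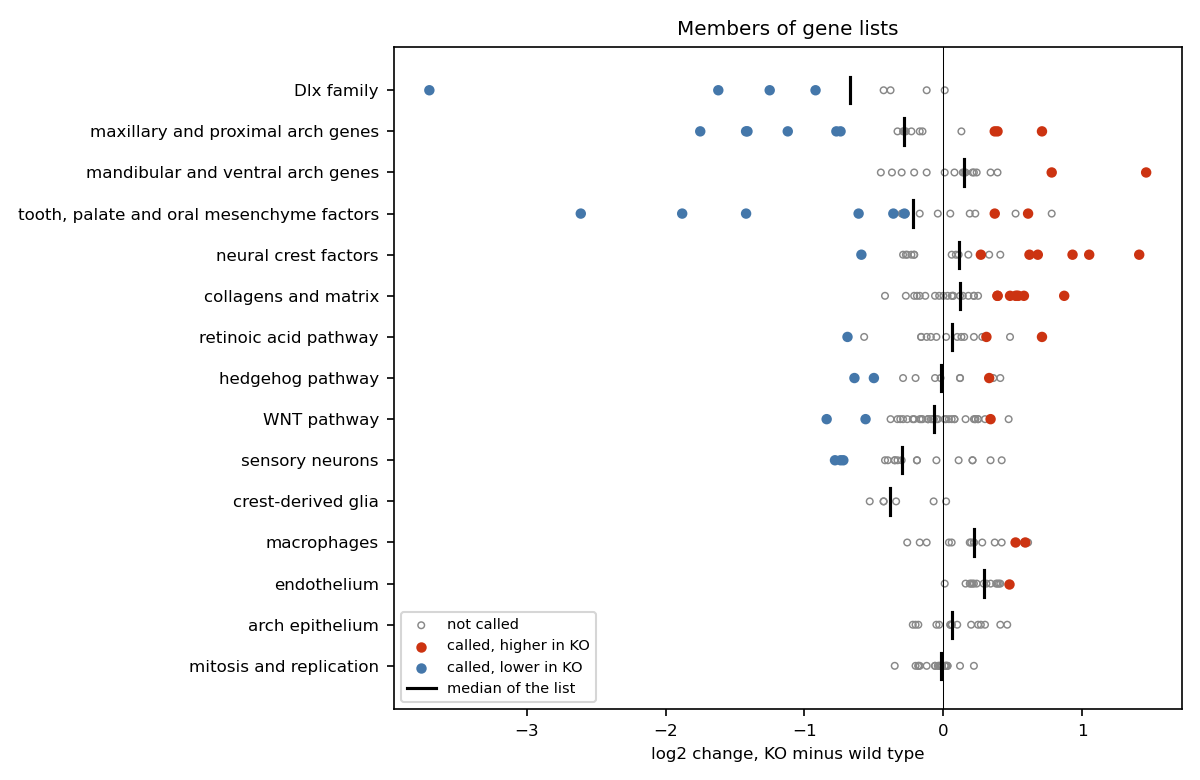
Log2 change (KO minus WT_MXA2) of the tested members of 15 gene lists; filled points were called (red higher, blue lower), open points were not, and black ticks are list medians. The Dlx list has the lowest median (-0.67), and its lowest member is Dlx2 at -3.70; the lowest member of the tooth list is Barx1 at -2.61, and the neural crest row includes Zic1 and Zic2, which passed the filter through the KO arrays.

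Several further genes among the largest changes stood outside these lists. Stk26, a protein kinase gene, read 661, 607 and 625 against 1309, 1388 and 1329 (-1.02 ± 0.06, adjusted p = 2.1e-10), and its other probe set fell by 0.97. Crym, which encodes the thyroid hormone binding protein mu-crystallin, read 1329, 1599 and 1434 against 771, 688 and 823 (0.91 ± 0.09, adjusted p = 1.4e-06). Zmat4, a zinc finger gene, read 16.2, 10.1 and 18.5 against 50.7, 53.4 and 68.0 (-0.97 ± 0.14), with an uncalled other probe set (-0.32).

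S100a6, a calcium-binding protein gene, read 146, 145 and 152 against 81.0, 62.8 and 75.7 (0.77 ± 0.13). The LIM homeobox gene Lhx2, listed with arch muscle and with forebrain and eye genes, averaged 115 ± 12.4 in the KO and 54.9 ± 4.84 in the wild type (SD, n = 3 each), a change of 0.74 ± 0.13 (limma adjusted p = 0.0039). Cldn11, a tight junction gene, rose by 0.81 and lost its call without KO replicate 1 (adjusted p = 0.071). Dus2 (-1.09) lost its call without any of the arrays except KO replicate 2 (up to 0.14) and its other probe set read 0.02, while Atxn7l1os2 (0.74) lost it without any except WT_MXA2 replicate 3 (up to 0.13).

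Markers of cell types other than arch mesenchyme moved between the groups. In bulk tissue, fewer cells of a type and less RNA per cell cannot be told apart. The part of these cell types in the gene changes above was not tested. Of 17 sensory neuron genes, 0 rose and 3 fell, with a median of -0.30, and their summed signal was 2401 to 2468 in the KO against 2468 to 2504. At an unadjusted p under 0.05 in limma, 2 were higher and 8 lower (58.8%, against 11.6% of all genes tested). The change was positive in 5 of the 17, up to 0.42. The neurofilament gene Nefm read 151, 166 and 132 against 298, 267 and 238 (-0.74 ± 0.12, adjusted p = 0.0011). Nefl fell by 0.72 and lost its call without KO replicate 1 or 2 or WT_MXA2 replicate 2 (adjusted p up to 0.094). The other Nefl probe set was not called (-0.18). The proneural gene Neurog1 fell by 0.78 and lost it without KO replicate 2 or 3 or WT_MXA2 replicate 1 or 3 (up to 0.2). WT_MXA2 itself lay below WT_MXA by 1.20 for Nefm and 1.46 for Nefl, more than the KO difference. Crest-derived glia had 0 called members of 6 (0 higher and 3 lower at an unadjusted p under 0.05 in limma, 50% against 11.6% of all genes tested), with a median of -0.39 and sums of 443 to 497 against 511 to 638.

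Macrophage markers had 2 rises and 0 falls among 16 (0 falls also at an unadjusted p under 0.05 in limma), with a median of 0.22 and a summed signal of 1199 to 1248 against 820.3 to 924. Csf1r, the receptor that macrophages need, read 261, 259 and 303 against 169.5, 177 and 165 (0.59 ± 0.09, adjusted p = 0.001), while its 2 other probe sets were not called. Mrc1 (0.52) lost its call without any of the 6 arrays (adjusted p up to 0.091). Endothelial markers were positive in 15 of 15, where 49.7% of all genes tested were positive. They had 1 call (Emcn, 0.47), a median of 0.29 and sums of 2155 to 2466 against 1659 to 1850. Against WT_MXA, 1 was called higher and 1 lower, with a median of 0.14. Emcn lost its call without KO replicate 2 or 3 or WT_MXA2 replicate 3 (adjusted p up to 0.068).

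Arch epithelium (0 of 16), mural cells (0 of 9) and primitive erythroid cells (0 of 9) had no called member, with medians of 0.06, 0.18 and 0.01. At an unadjusted p under 0.05 in limma, 6 epithelial markers were higher (37.5%, against 11.6% of all genes tested), and 1 mural and 1 erythroid marker were (11.1% each). Of markers of tissue outside the arch, the eye genes Pax6 and Tyr averaged 8.16 and 14.6 in the KO and 11.0 and 12.3 in the wild type. The calls in the 9 forebrain and eye genes were Lhx2 and Emx2, in the 6 olfactory and lens genes Dlx5, and in the 11 arch mesoderm and muscle genes Lhx2. At an unadjusted p under 0.05 in limma, 5 of these 11 muscle list genes were higher and 0 lower (45.5%, against 11.6% of all genes tested). Their median was 0.23, and their summed signal was 786 to 837 in the KO against 566 to 625 in WT_MXA2. Against WT_MXA, 1 was called higher and 2 lower, with a median of 0.18. Of 4 Hox genes, normally silent in the first arch, 0 were called and 0 passed an unadjusted p under 0.05 in limma, and of 6 interneuron genes 0 were called and 3 passed it. Among Y-linked genes, Kdm5d read 138, 123 and 125 against 68.0, 74.3 and 61.0 (0.68), with the other probe set at -0.08, while Eif2s3y (0.52) and Uty (0.32) were not called. Xist, listed with them but not Y-linked, was not called either (-0.27). The sex of the embryos in each sample is not given, and its part in these values was not tested.

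**Figure D4:**
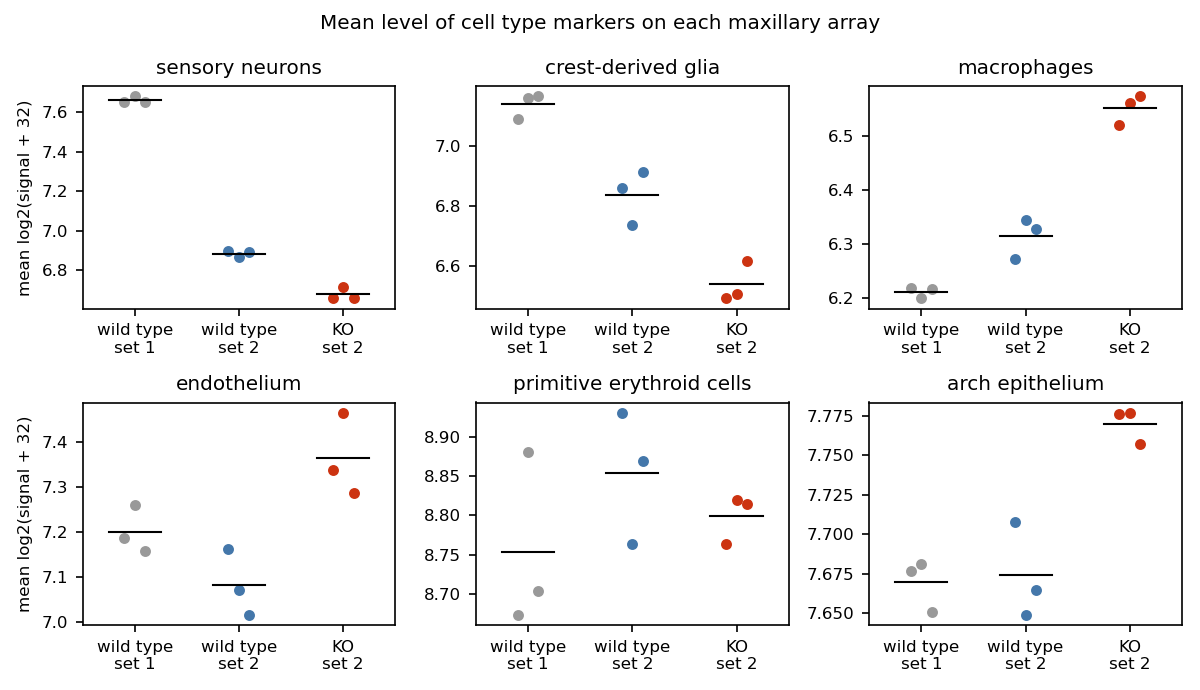
Mean log2(signal + 32), after normalization, of 6 marker lists on each maxillary array: WT_MXA (grey, set 1), WT_MXA2 (blue, set 2) and KO (red, set 2); lines are group means, and each panel has its own axis that does not start at 0. Macrophage and endothelial lists are highest in the KO. Neuronal and glial lists are lowest there, with WT_MXA2 between KO and WT_MXA for both.

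The other wild-type maxillary group was used as a second control for all called genes. Of the 89 rises, 63 were also called higher against WT_MXA, 3 were called lower and 23 were not called. Of the 86 falls, 68 were called lower, 2 higher and 16 not called. These comparisons share the KO arrays, so they are not independent, and 11.6% of all genes tested were called against WT_MXA, 5.31% higher and 6.33% lower. Dlx2 (-3.15), Barx1 (-2.43), Osr1 (-1.75), Lhx6 (-1.42), Foxd1 (1.89), Pou3f4 (1.55) and Zic5 (1.35) kept their direction and their call there.

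The KO change was also set against the Dlx5/6 mutant change in the mandibular branch, which uses 6 other arrays. Of the 89 rises, 28 were called higher and 9 lower in that mutant, and of the 86 falls 19 were called lower and 10 higher, where 3.13% of all genes tested were called, 1.56% in each direction. The difference of the changes was called for 201 genes (1.44%). Barx1 changed by -0.40 in the Dlx5/6 mutant (adjusted p = 0.013), Osr1 by -0.10 (0.82), Emx2 by -0.22 (0.61), Foxd1 by -0.26 (0.17) and Pou3f4 by 0.21 (0.65). Cyp26a1 and Itih5 were higher there too, by 1.62 and 1.59, and Rspo2 and Shox2 lower, by -1.12 and -0.76.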

How the data were processed

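Tissue RNA was measured on Affymetrix mouse arrays, 3 a group. The deposited values are linear intensities, 1 per probe set, without a detection call; the trimmed mean (2% off each end) was 150 on every array, so the authors' values had been scaled. The scanner software and summary method are not given in the sources used here. Values were taken as log2(intensity + 32) and quantile normalized, because array medians differed by 0.159. Probe sets above the 40th percentile of their array on at least 3 arrays were kept (31677 of 45101, 64 being controls). Each gene was represented by its brightest kept probe set with 1 symbol, sets marked _x_ or _s_ only where no other was kept. Group means of all 15 arrays were fitted with limma 3.58.1 in R 4.3.3 (10 residual degrees of freedom, intensity trend, two-sided), and p-values were adjusted by Benjamini-Hochberg over all kept probe sets.

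The members and gene lists were chosen with earlier results of these data known, so list counts and medians describe and test nothing. Genes named were the 15 largest rises and 15 largest falls, all Dlx transcripts, up to 6 called members of each of 35 lists, and list members needed to show a level. On simulated data for 31677 probe sets with the group sizes of KO_MXA against WT_MXA2, 42% of changes of 1.5-fold, 58% of 2-fold, 80% of 3-fold and 62% of 4-fold were called, and 12 of 133 calls were false. Promoters are those RefSeq lists first for a gene (GRCm38.p6). Alternatives covered scaling, pseudocount, filter, arrays in the model, variance model, control group, probe sets, thresholds and single arrays left out.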

Additional observations from a re-analysis of the deposited data

Results flagged for a closer look

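Among the called genes, 19 changed in opposite directions in the KO maxillary branch and the Dlx5/6 mutant mandibular branch, each called in both and with a called difference (limma adjusted p, no arrays shared), and 7 of them are named in the report. Branch and mutation change together between these comparisons and cannot be told apart. Pou3f3 was lower in the KO and higher by 2.16 in the Dlx5/6 mutant, a difference of -2.93 ± 0.12 (SE, adjusted p = 3.9e-13). Its noncoding neighbour Pantr1 was higher by 1.90 in the Dlx5/6 mutant, a difference of -2.64 ± 0.17. For Shisa3 the Dlx5/6 change was 0.77 and the difference -2.51 ± 0.17. Lhx6 differed by -2.46 ± 0.12, with a Dlx5/6 change of 1.05, and Dlx1 by -2.35 ± 0.10, with a Dlx5/6 change of 0.72. In the other direction, Tbx22 fell by 1.27 in the Dlx5/6 mutant (difference 1.87 ± 0.18) and Igf2 fell by 0.81 (difference 1.19 ± 0.10).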

How the results depend on the processing

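The 175 called genes became 161 to 183 with the deposited scaling only, a smaller or larger pseudocount, array weights, the 9 maxillary arrays alone, a common median or no _x_ or _s_ probe sets. They became 150 with the 6 arrays alone, 137 without a filter and 200 with a filter within the compared groups. Without the intensity trend 104 were called, at an adjusted p under 0.01 95, with an added minimum change of 0.58 84, and with WT_MXA as control 1623, of which 131 were among the 175 with the same sign. Leaving out single arrays gave 109 to 132. The median change over all genes was -0.047 with a common median and 0.011 with the deposited scaling. Deviations of same-numbered KO and WT_MXA2 arrays had correlations of 0.002, -0.006 and 0.019, within the -0.023 to 0.021 of the other pairings. Taken from means of few arrays, such deviations cannot show whether same-numbered arrays shared a litter, dissection or batch, which was not tested. With the replicate number as a block, 133 genes were called. Of 69 named called genes, 43 kept their call without any single array and 42 under every alternative with WT_MXA2 as control; the cause of each lost call was not tested. With WT_MXA as control, Col1a2 (-0.20), Col5a2 (-0.09) and Col6a3 (-0.11) turned round. Other probe sets went against the call for Cxcl12 (-0.14), Dus2 (0.02), Fzd1 (-0.01), Jag1 (-0.07), Kdm5d (-0.08), Msx2 (0.11), Rspo2 (0.46) and Spred1 (-0.09, -0.08 and -0.23). KO_MXA against WT_MXA had 811 called genes at an adjusted p under 0.01 and 415 with the minimum change. WT_MXA2 against WT_MXA had 714 without the trend, 572 at 0.01, 261 with the minimum change and 793 to 1215 without single arrays. The difference between the mutants' changes had 126 at 0.01. Dim transcripts such as Dlx6 and Hand2 lay near the background level, where a change cannot be measured well.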
